A study of Homo sapiens with 3 samples.

Results

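AXIN2, GLUL, LGR5, NKD1, TCF7, LEF1, ZNRF3, RNF43, DKK1 and TBX3 are 10 genes whose transcription is known to respond to Wnt signalling, and they were followed through every probe set that the platform annotation assigns to them alone. There were 26 such probe sets for 9 of the 10 genes, out of 54675 probe sets on the array. TCF7 had none and was not analysed here. The samples were RNA preparations of a cisplatin-resistant subline (MHCC97L/CisR, here CisR) and a doxorubicin-resistant subline (MHCC97L/DoxR, here DoxR), both derived from the human metastatic hepatocellular carcinoma cell line MHCC97Low, and of that parental line. Each line was measured on 1 human U133 Plus 2.0 array from Affymetrix. All 3 lines were cultured in DMEM with 10% FBS and, per the labels, had no treatment at the time of harvest. The drug doses used for selection, and whether a subline is a clone, are not given in the sources used here. With 1 array per line there was no spread between cultures to set a difference against. Nothing could thus be tested, and the precision of each value could not be estimated.

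Wnt ligands bind Frizzled receptors and the co-receptors LRP5 and LRP6, which stops the destruction complex of AXIN, APC, casein kinase and GSK3 from marking beta-catenin for degradation. Beta-catenin then enters the nucleus and binds the TCF and LEF transcription factors at target genes. Many targets feed back on the pathway: AXIN2 is a scaffold of the destruction complex, NKD1 binds Dishevelled, ZNRF3 and RNF43 are membrane ubiquitin ligases that remove Frizzled from the cell surface, and DKK1 is a secreted blocker of LRP5 and LRP6. In the liver the pathway is active in hepatocytes around the central vein, where GLUL (glutamine synthetase) is expressed, and GLUL is commonly used as a readout of active beta-catenin in liver tumours.

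The RefSeq promoter table (GRCh38.p14) held 8 start sites for 5 of the 10 genes, namely GLUL, LEF1, TCF7, DKK1 and RNF43. AXIN2, LGR5, NKD1, ZNRF3 and TBX3 are named only. The 250 bases before each start were searched on both strands for the TCF/LEF core (CTTTG and then AA, AT, TA or TT). No match overlapped another. At least 1 match occurred in 2 of the 8 windows, 1 of DKK1 and 1 of TCF7, and in 12.0% of all 35116 windows of this length. The windows of DKK1, and of GLUL and RNF43 at their outermost starts are given 5′ to 3′, since these 3 genes were measured on all arrays and their differences are described below. Capitals mark the core.
DKK1 promoter, chr10:52314031-52314280, strand plus: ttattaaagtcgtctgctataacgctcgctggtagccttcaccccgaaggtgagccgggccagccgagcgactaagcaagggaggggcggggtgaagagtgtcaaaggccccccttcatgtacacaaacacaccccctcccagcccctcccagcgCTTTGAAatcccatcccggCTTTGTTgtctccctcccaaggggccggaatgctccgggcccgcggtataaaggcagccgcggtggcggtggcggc
GLUL promoter, chr1:182391791-182392040, strand minus: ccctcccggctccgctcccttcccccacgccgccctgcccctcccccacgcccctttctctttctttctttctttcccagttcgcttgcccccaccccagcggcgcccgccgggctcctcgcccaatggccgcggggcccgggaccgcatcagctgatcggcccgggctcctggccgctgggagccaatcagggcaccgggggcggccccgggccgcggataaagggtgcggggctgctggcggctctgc
RNF43 promoter, chr17:58417535-58417784, strand minus: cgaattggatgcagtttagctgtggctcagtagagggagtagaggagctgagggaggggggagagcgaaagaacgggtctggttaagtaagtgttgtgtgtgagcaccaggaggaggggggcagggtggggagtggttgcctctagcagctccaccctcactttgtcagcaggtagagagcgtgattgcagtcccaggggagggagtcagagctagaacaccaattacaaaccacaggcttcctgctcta
In DKK1 the letters CTTTGAA began 95 bases and CTTTGTT 76 bases before the start, both on the coding strand. The windows of GLUL and RNF43 held none of these forms, which says only that these letters are absent from these 250 bases.

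Signals are MAS5 values on a linear scale with no physical unit. The floor was 76.9, the median of all values on the 3 arrays, and a value under it was raised to it because low MAS5 signals have no usable order. A probe set was compared when at least 1 of the 2 arrays lay above the floor and was called higher or lower at 2-fold. Where 1 of the 2 values was not above the floor, the fold is a bound and is given as "at least". A gene is represented by its brightest probe set, and levels of different probe sets are not compared. The median signal was 79.2, 73.3 and 78.5 on the CisR, DoxR and parental arrays. Of the 26 probe sets, 10 lay above the floor on all 3 arrays, 2 on 1 array and 14 on none. AXIN2, ZNRF3, RNF43, DKK1, TBX3 and GLUL were thus measured, and LGR5, NKD1 and LEF1 lay under the floor in all of their probe sets.

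**Figure D1:**
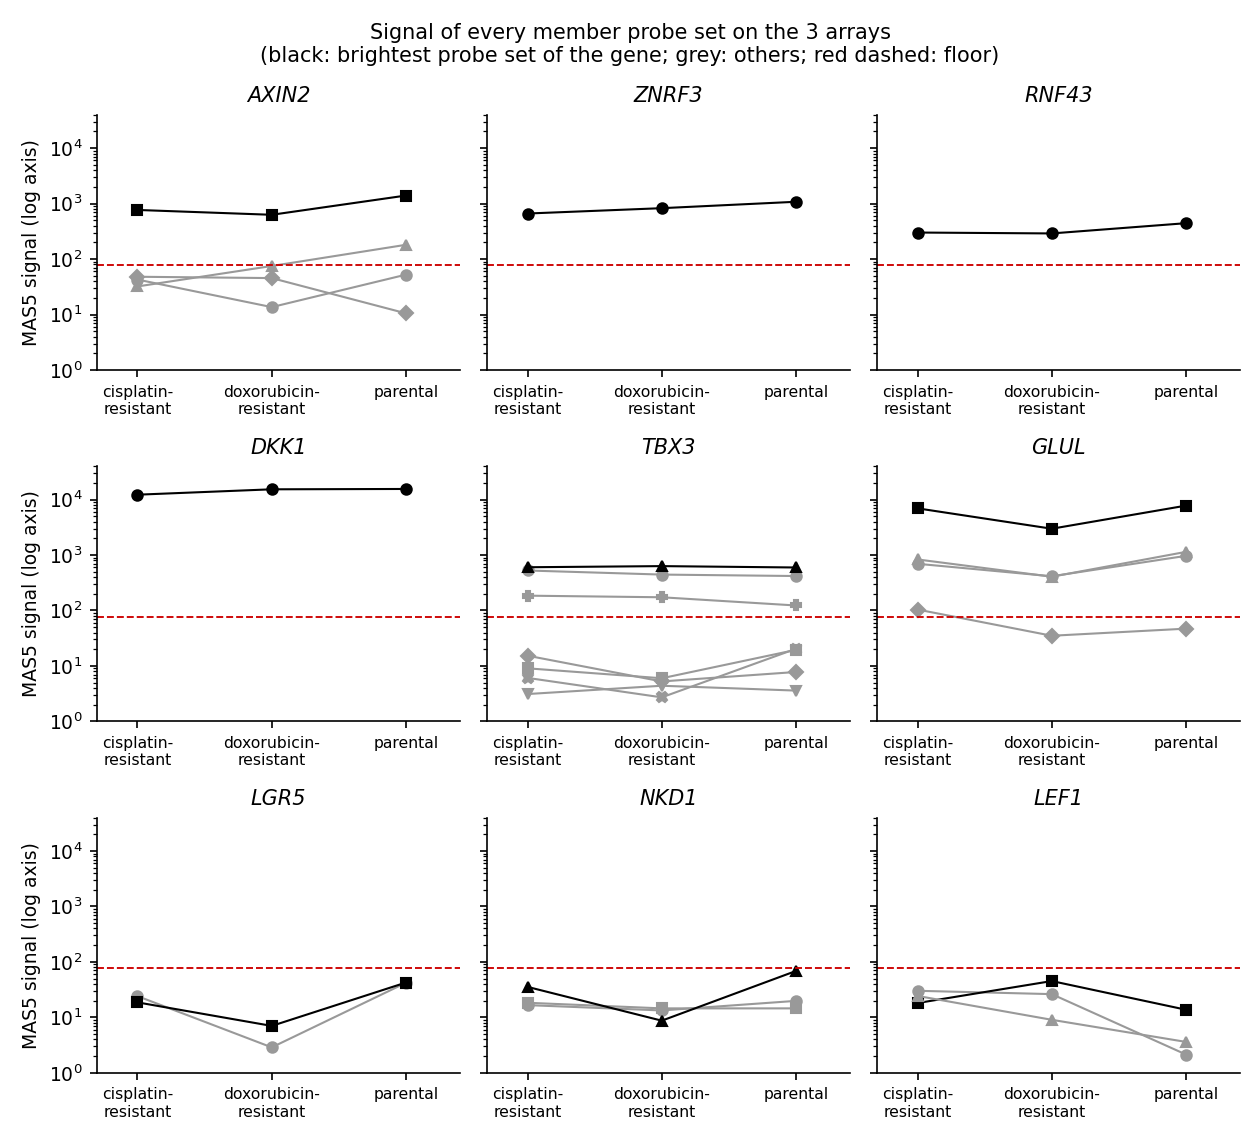
MAS5 signal (vertical log axis) of each of the 26 probe sets on the cisplatin-resistant (CisR), doxorubicin-resistant (DoxR) and parental arrays, with a panel for each gene. Points are single arrays, lines join the values of one probe set, black marks the brightest probe set of the gene and the red dashed line the floor of 76.9. GLUL is lowest on the doxorubicin-resistant array in its 3 brighter probe sets, AXIN2 is highest on the parental array in its 2 brighter ones, and all points of LGR5, NKD1 and LEF1 lie under the floor.

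Among the feedback inhibitors, AXIN2 had the largest differences from the parental line. Its brightest probe set, 222696_at, had a signal of 769 in the CisR, 629 in the DoxR and 1399 in the parental line. It was 1.82-fold lower than parental in the CisR line (log2 difference -0.86) and 2.22-fold lower in the DoxR line (-1.15). Both sublines were thus below the parental array, and the second passed 2-fold. Only 3.47% of all compared probe sets had a lower difference than this in the CisR line, and 1.49% did so in the DoxR line. In bulk RNA, fewer cells expressing a gene and less RNA of it per cell cannot be told apart.

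A second AXIN2 probe set, 224176_s_at, had signals of 32.1 and 75 in the CisR and DoxR lines and 181 in the parental line. Only the parental value was above the floor, so AXIN2 was at least 2.35-fold lower by this probe set in either subline. The other 2 AXIN2 probe sets were under the floor on all arrays and gave no comparison. They had signals of 42.7, 13.6 and 52.4 (222695_s_at) and of 48.0, 45.4 and 10.5 (224498_x_at) in the CisR, DoxR and parental lines. The suffix _x_at marks a probe set whose probes can match other sequences.

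ZNRF3 and RNF43, the paired ligases that clear Frizzled, were each read by 1 probe set. ZNRF3 (226360_at) had a signal of 663 in the CisR, 828 in the DoxR and 1080 in the parental line. It was 1.63-fold lower than parental in the CisR line (-0.71) and 1.30-fold lower in the DoxR line (-0.38). Neither difference reached 2-fold.

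RNF43 (218704_at) had a signal of 301 in the CisR, 290 in the DoxR and 444 in the parental line. The CisR line was 1.48-fold (-0.56) and the DoxR line 1.53-fold (-0.62) lower than parental. Their own values lay within 1.04-fold of each other. RNF43 and AXIN2 both lie on chromosome 17, and the values of their neighbours are given below.

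DKK1 (204602_at), the secreted inhibitor whose promoter letters are shown above, had a high signal on all arrays. It was 12252 in the CisR, 15323 in the DoxR and 15539 in the parental line. The CisR value was 1.27-fold lower than parental (-0.34), and the DoxR value was within 1.01-fold of it (-0.02). NKD1 was under the floor, with signals of 8.70 to 68.6 over its 3 probe sets and the 3 arrays.

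Of the transcription factors, TBX3, a T-box repressor, was the only measured member that lay at or above its parental value in both sublines. Its brightest probe set, 225544_at, had a signal of 602 in the CisR, 631 in the DoxR and 596 in the parental line, with log2 differences of 0.01 in CisR and 0.08 in DoxR. Probe set 219682_s_at had signals of 526 in CisR, 444 in DoxR and 418 in parental cells, with differences of 0.33 in CisR and 0.08 in DoxR. Probe set 229576_s_at had 185 in CisR, 173 in DoxR and 123 in parental cells, with differences of 0.59 in CisR and 0.49 in DoxR. None of the 3 measured TBX3 probe sets reached 2-fold, while its other 4 probe sets lay under the floor at 2.71 to 20.4. LEF1, a DNA-binding partner of beta-catenin, was under the floor in all 3 of its probe sets, with signals of 2.13 to 45.1.

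LGR5, a receptor for R-spondins that marks stem cells in several epithelia, was also under the floor. Its 2 probe sets had signals of 24.1 and 18.6 in the CisR line, 2.87 and 7.0 in the DoxR line and 42.0 and 42.4 in the parental line. No order was read from these values, because they lie under the floor.

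GLUL, which makes glutamine from glutamate and ammonia, was lower in the DoxR line by every probe set that could be compared. The brightest, 215001_s_at, had a signal of 6950 in the CisR, 2981 in the DoxR and 7784 in the parental line. The DoxR value was 2.61-fold lower than parental (-1.38), and 0.823% of all compared probe sets had a lower difference. The CisR value was 1.12-fold lower (-0.16).

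The other measured GLUL probe sets gave differences of like size in the DoxR line. Probe set 200648_s_at had a signal of 695 in the CisR, 414 in the DoxR and 967 in the parental line, 1.39-fold lower than parental in CisR and 2.34-fold lower in DoxR. Probe set 217202_s_at had 832 in CisR, 406 in DoxR and 1141 in parental cells, 1.37-fold lower in CisR and 2.81-fold lower in DoxR. The DoxR line was thus past 2-fold in all 3 of these probe sets and the CisR line in none. The remaining probe set, 242281_at, was above the floor only in the CisR line. Its signal of 104 there was at least 1.35-fold higher than the parental value of 47.0. It was thus compared only through its CisR value and had to be higher there. Its DoxR value was 35.0. Probe sets of 1 gene share its transcripts and were read from the same RNA, so they are not replicates of a condition.

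**Figure D2:**
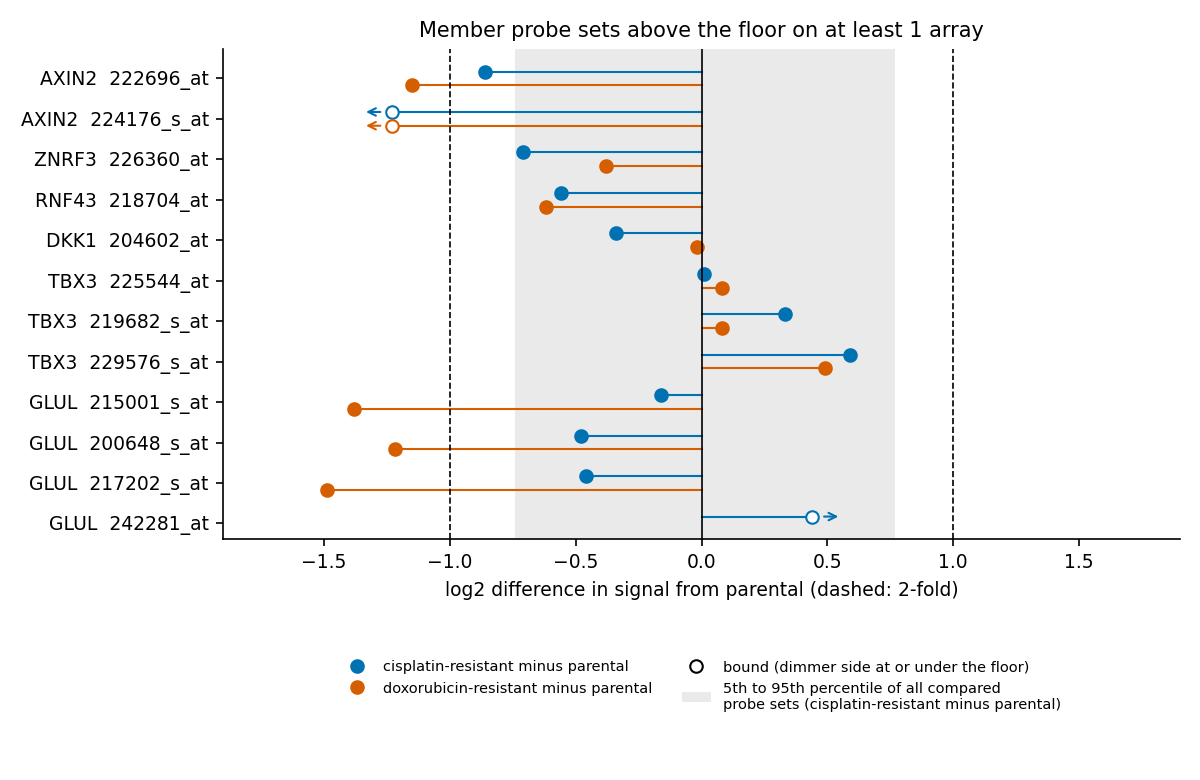
Log2 difference in signal from the parental line (horizontal axis) for the 12 probe sets above the floor on at least 1 array, with the cisplatin-resistant line in blue and the doxorubicin-resistant line in orange. Open points with arrows are bounds, dashed lines mark 2-fold, and the grey band spans the 5th to 95th percentile (-0.74 to 0.77) of all compared probe sets in the cisplatin-resistant comparison. In the doxorubicin-resistant line the 2 AXIN2 and the 3 compared GLUL probe sets lie past 2-fold, whereas TBX3 lies at or above 0 in both lines.

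Counted over probe sets, 1 of 12 compared was called lower and none higher in the CisR line, where 2.34% of all 29413 compared probe sets were called lower and 2.39% higher. For DoxR, 5 of 11 were called lower and none higher, where 2.39% and 2.55% of all 29024 were. The 5 belong to AXIN2 and GLUL. The CisR call and 1 of the 5 are AXIN2 224176_s_at, which was compared only through its parental value and so had to be lower. With a floor at the 25th percentile (19.4), 2 probe sets were higher and 2 lower in the CisR line, and 2 higher and 9 lower in the DoxR line. Counted over genes, none of the 6 measured members reached 2-fold in the CisR line, where 2.58% of 12710 genes were lower and 2.83% higher. AXIN2 and GLUL, 2 of 6, were lower in the DoxR line, where 2.74% of 12605 genes were lower and 2.98% higher. The median log2 difference of the 6 genes was -0.45 in the CisR and -0.50 in the DoxR line, against 0.02 and 0.00 over all genes compared. In each subline 5 of the 6 were below the parental value, against 47.8% and 49.6% of all genes. TBX3 was the exception in both, and DKK1 in the DoxR line was below by only 1.01-fold (-0.02). Both comparisons share the 1 parental array. The members were chosen with earlier results of these data known, so the contrast with all genes is not independent of that choice.

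The sublines were also compared with each other, and GLUL differed most. Its brightest probe set was 2.33-fold lower in the DoxR than in the CisR line (-1.22), with 2.05-fold and 1.68-fold by the other measured probe sets. Probe set 242281_at was at least 1.35-fold lower, but it was compared only through its CisR value and had to be lower. Taken as the median over the GLUL probe sets, 242281_at included, the difference was -0.89, under 2-fold. By probe sets 2 of 11 were called lower, both of GLUL, and none higher, where 2.97% and 2.61% of all were. GLUL was the only 1 of the 6 genes called, where 3.30% of 12604 genes were called lower and 3.05% higher. AXIN2 was 1.22-fold lower in the DoxR line (-0.29), and ZNRF3 and DKK1 were each 1.25-fold higher there (0.32). RNF43 (-0.05) and TBX3 (0.07) had the smallest differences. The median of the 6 genes was 0.01, against -0.01 over all genes.

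Each measured member was also set beside the 14 nearest compared genes on its chromosome, 7 on either side. In the CisR line the neighbours of RNF43 had a median log2 difference of -0.53, close to the -0.56 of RNF43 itself. The neighbours of AXIN2 had -0.32 there, and AXIN2 was at -0.54 once that median was subtracted. For DoxR the neighbours of RNF43 were at 0.02 and those of AXIN2 at -0.13. GLUL, on chromosome 1, had neighbours at 0.08 in the CisR and -0.37 in the DoxR line, and its difference in the DoxR line was -1.01 after subtraction. AXIN2 was then at -1.02. The neighbours of ZNRF3 on chromosome 22 were at -0.07 in CisR and -0.11 in DoxR, and those of TBX3 on chromosome 12 at 0.01 in CisR and -0.07 in DoxR. DKK1 on chromosome 10 had neighbours at -0.13 in the CisR and 0.22 in the DoxR line.

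**Figure D3:**
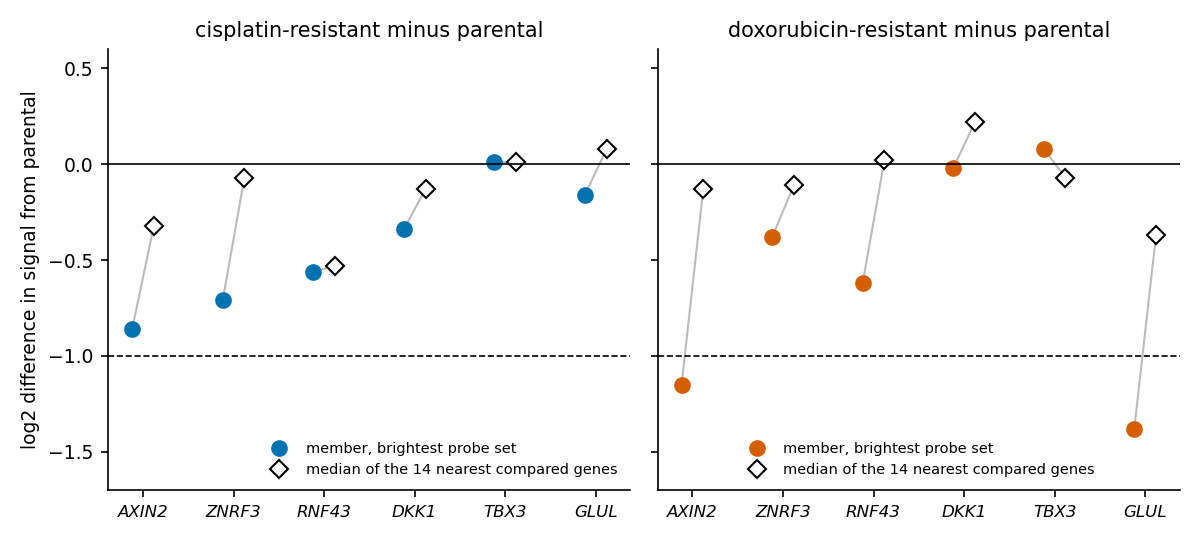
Log2 difference in signal from the parental line (vertical axis) of the brightest probe set of each measured member (filled) and the median of its 14 nearest compared genes (open), for the cisplatin-resistant line on the left and the doxorubicin-resistant line on the right. The dashed line marks 2-fold lower. RNF43 lies on its neighbours in the cisplatin-resistant line (-0.56 and -0.53) and below them in the doxorubicin-resistant line (-0.62 and 0.02).

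The rest of the pathway was described through 8 lists of ligands, receptors, signal transducers, inhibitors, other targets and liver zonation genes. Of 153 listed genes, 142 were on the array under 1 symbol. In the CisR line 90 of them were compared, of which 3 were higher and 4 lower, 7.78% together, where 5.41% of all genes were called. In the DoxR line 90 were compared, with 4 higher and 3 lower, again 7.78%, where 5.72% of all genes were called. These counts use the brightest probe set of each gene. Another probe set alone passed 2-fold for 6 further genes in the CisR and 5 in the DoxR line. The like count over all genes was not made, so these 2 counts have no share to stand beside. The list medians lay between -0.44 and 0.08 in the CisR line and between -0.28 and 0.51 in the DoxR line, against 0.02 and 0.00 over all genes.

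For ligands and receptors, the counts stand beside 5.41% of all genes called in the CisR and 5.72% in the DoxR line. Of 21 ligands, R-spondins and secretion factors on the array, 7 were above the floor on any array, and none reached 2-fold in either subline by its brightest probe set. WLS, which carries Wnt proteins to the cell surface, was 2.04-fold lower in the DoxR line by another probe set (-1.03), against -0.29 by its brightest. Of 12 compared receptors and co-receptors, only FZD2, a Frizzled receptor, was called. It had a signal of 221 in the CisR, 166 in the DoxR and 459 in the parental line, 2.08-fold lower in CisR and 2.76-fold lower in DoxR. Its other probe set gave log2 differences of -0.63 in CisR and -1.22 in DoxR. The co-receptors LRP5 and LRP6 had log2 differences of 0.39 and -0.23 in the CisR and 0.15 and -0.37 in the DoxR line. LGR4, the R-spondin receptor related to LGR5, had 0.05 in CisR and 0.14 in DoxR, with signals of 802, 856 and 775 in the CisR, DoxR and parental lines.

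None of the 18 compared genes of the beta-catenin core and destruction complex reached 2-fold in either subline by its brightest probe set. Only 5.41% of all genes did so in the CisR and 5.72% in the DoxR line, so no call among 18 is near that share. The kinase CSNK1E differed between its probe sets, with log2 differences of -0.27 in CisR and -0.45 in DoxR by the brightest and 1.08 in CisR and 0.68 in DoxR by the other. CTNNB1, which encodes beta-catenin, had signals of 9438, 8925 and 10592 in the CisR, DoxR and parental lines, log2 differences of -0.17 in CisR and -0.25 in DoxR. AXIN1, the constitutive relative of AXIN2, had signals of 725 in CisR, 721 in DoxR and 801 in parental cells, differences of -0.14 in CisR and -0.15 in DoxR. The scaffold APC had log2 differences of 0.49 in CisR and 0.29 in DoxR. The kinases GSK3B and CSNK1A1 had -0.17 and 0.19 in CisR and -0.13 and 0.13 in DoxR. The median of this list was -0.11 in CisR and -0.05 in DoxR.

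Of the TCF partners and nuclear co-factors, 1 of 16 was called in the CisR and 1 of 14 in the DoxR line by its brightest probe set. These counts are near the shares of all genes called, 5.41% in the CisR and 5.72% in the DoxR line. CTNNBIP1, an inhibitor of beta-catenin binding to TCF, had a signal of 46.7 in the CisR, 105 in the DoxR and 186 in the parental line. It was at least 2.41-fold lower in CisR, where it was compared only through its parental value and had to be lower. In DoxR it was 1.76-fold lower. TCF7L1, a mainly repressive TCF, had 405 in CisR, 707 in DoxR and 335 in parental cells, 1.21-fold higher in CisR and 2.11-fold higher in DoxR. TCF7L2, another TCF, had log2 differences of 0.24 in CisR and 0.25 in DoxR. The co-factor CREBBP differed between its probe sets in the CisR line. It was 3.08-fold lower there by another probe set (-1.62), against -0.18 by its brightest and -0.26 by the remaining compared probe set. In the DoxR line its compared probe sets lay between -0.61 and -0.07, under 2-fold.

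Among secreted inhibitors, 1 of 5 was called in the CisR and 1 of 6 in the DoxR line, in both cases SOST, a blocker of LRP5 and LRP6. Of all genes, 5.41% were called in the CisR and 5.72% in the DoxR line. SOST was above the floor only in the parental line, with a signal of 217, and was at least 2.82-fold lower in either subline. It was thus compared only through its parental value and had to be lower. Of other Wnt targets 17 were compared in the CisR and 18 in the DoxR line. By its brightest probe set 1 was called in each, near the same shares of all genes. Other probe sets were past 2-fold lower for ID2 (-1.72, against -0.91 by the brightest) and CD44 (-1.05, against -0.78) in the CisR line. In the DoxR line SOX4 was (-1.12, against -0.41). Other PPARD probe sets gave -1.20 in CisR and -1.09 in DoxR, against 0.38 and -0.15. These PPARD values were compared only through the parental value and had to be lower. BMP4, a bone morphogenetic protein, was 2.13-fold higher in the CisR line, with signals of 794, 323 and 372 in the CisR, DoxR and parental lines. MMP7, the matrix protease matrilysin, had 12932 in CisR, 7337 in DoxR and 16859 in parental cells and was 2.30-fold lower in the DoxR line (-1.20) and 1.30-fold lower in the CisR line (-0.38).

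GLUL is a perivenous liver gene, and 17 further perivenous genes were on the array. Of 10 compared in the CisR and 9 in the DoxR line, none was called lower by its brightest probe set. Only 2.58% of all genes were called lower in the CisR and 2.74% in the DoxR line. By another probe set VNN1, a pantetheinase, had log2 differences of -1.15 in CisR and 1.17 in DoxR, and GSTM3, a glutathione transferase, had -0.24 in CisR and -1.14 in DoxR. SLCO1B3, a hepatocyte uptake transporter, had a signal of 210 in the CisR, 46.4 in the DoxR and 45.7 in the parental line. It was at least 2.73-fold higher in the CisR line, but was compared only through its CisR value and had to be higher. The median of the list was -0.06 in the CisR and -0.03 in the DoxR line. Of 6 compared periportal genes, CDH1 (E-cadherin) was 2.14-fold higher and ALB (albumin) at least 20.1-fold lower in the CisR line. ALB was compared there only through its parental value and had to be lower. Its other compared probe sets had log2 differences of -2.34 and -1.40 in the CisR line. In the DoxR line CDH1 was 3.84-fold, ASS1, a urea cycle enzyme, 2.73-fold and ALB 2.02-fold higher. The other compared ALB probe sets had log2 differences of 0.95 and 0.18 in the DoxR line, under 2-fold. Of all genes, 2.83% were called higher and 2.58% lower in CisR, and 2.98% and 2.74% in DoxR.

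**Figure D4:**
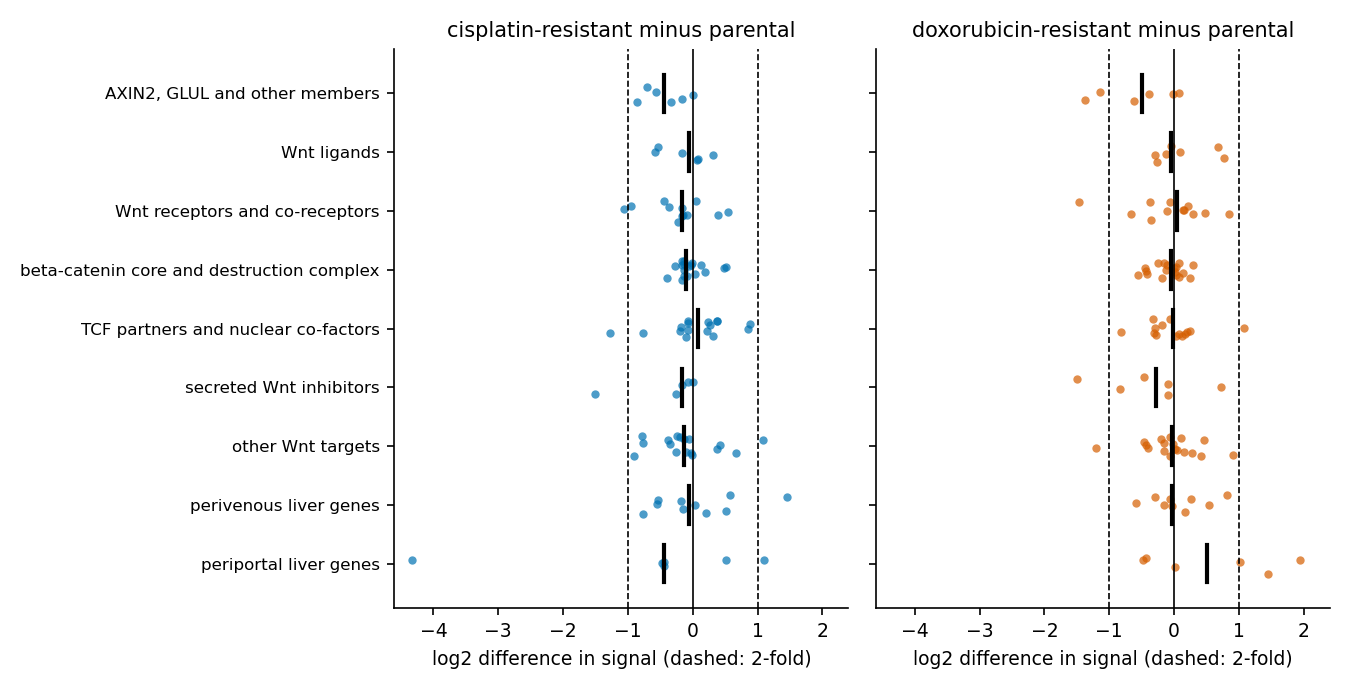
Log2 difference in signal from the parental line (horizontal axis) of each compared gene in the 6 measured members (top row) and the 8 lists, by its brightest probe set, for the cisplatin-resistant line on the left and the doxorubicin-resistant line on the right. Points are genes, spread vertically within a row for legibility, black bars are list medians and dashed lines mark 2-fold. The 6 members have medians of -0.45 and -0.50. The core and destruction complex genes lie within 2-fold, where 5.41% and 5.72% of all genes were called in the 2 lines.

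As a check of the label, the hepatocyte markers were not all present. Of 11 listed, 9 were on the array under 1 symbol, and 7, 6 and 6 of them were above the floor in the CisR, DoxR and parental lines. The summed signal of all 9 was 1517, 5567 and 10135, and APOA2 was under the floor in all 3 lines. KRT8 and KRT18, keratins of hepatocytes and other simple epithelia, had signals of 26062 and 33602 in the CisR, 26856 and 34849 in the DoxR and 23132 and 29626 in the parental line, while EPCAM was under the floor in all lines. In the CisR line 1 of 8 compared hepatocyte markers was higher and 6 were lower than parental, where 2.83% and 2.58% of all genes were. In the DoxR line 2 of 7 were higher and 2 lower, where 2.98% and 2.74% of all genes were. APOB, higher in both, was under the floor in the parental line and had to be higher. ALB, the other higher one in DoxR, was at 1.01, with 0.95 and 0.18 by other probe sets. Of the lower ones, ALB in CisR and FGB in DoxR were under the floor there and had to be lower. Other probe sets gave -2.34 and -1.40 for ALB in CisR and -4.07 for FGB in DoxR. The part of these marker differences in the differences of GLUL and AXIN2 was not tested. Fibroblast markers above the floor numbered 4, 2 and 2 of 8 in the CisR, DoxR and parental lines, and all 8 summed to 3436, 1552 and 815. Sums here are over every listed gene on the array, values under the floor included, and each is carried by its brightest genes. LUM made up 2632, 1167 and 258 of the fibroblast sum. Endothelial markers numbered 2 of 6 in each line, and all 6 summed to 1132, 1070 and 1346. PECAM1 and KDR were above the floor in every line and CDH5 in none. Leukocyte markers above the floor numbered 2, 2 and 1 of 5, and all 5 summed to 510, 328 and 413. ITGAM, at 270, 161 and 241, was above the floor in every line and PTPRC in none. Of the cholangiocyte markers 3 of 4 were above the floor in each line, and all 4 summed to 16006, 14588 and 11542, of which KRT19 made up 12819, 12056 and 8851. KRT7 went the other way in the CisR line, 3.22-fold lower than parental, with signals of 254, 838 and 818 in the CisR, DoxR and parental lines.

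The genes whose pair of log2 differences from parental lay nearest to that of AXIN2, among 11125 other genes above the floor on all 3 arrays, were ZNF350, BMF, GPRASP3 and ZNF271P, at Euclidean distances of 0.0479 to 0.107. Those nearest to GLUL were HSPA2, LRMDA, MAP1A and HS3ST1, at 0.0277 to 0.0694. Within a distance of 0.25 there were 29 genes for AXIN2 and 23 for GLUL. The measure rests on 3 arrays.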

How the data were processed

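The values were deposited as a linear intensity (MAS5 signal) per probe set, per the submitters' processing notes, with no version stated there. After trimming 2% of probe sets at either end, every array averaged 500.1, the form global scaling gives. MAS5 subtracts mismatch signal, which makes low values noisy. Detection calls were not used. Gene names came from the platform annotation and were brought up to date by Entrez identifier from a RefSeq table (GRCh38.p14). Of 54613 non-control probe sets, 41091 had 1 symbol (41037 matched), 1801 had several and were left unnamed, and 11721 are not named here. They gave 19775 genes. The floor was the pooled median (76.9), and lower values were set to it before taking log2. Comparisons were differences of log2 values between 2 arrays, with no p-value, SE or SD. A gene's probe set was the one with the highest mean floored log2 signal. Named genes were all 10 members, 9 pathway genes whatever their value, up to 3 genes of each list past 2-fold and the 4 nearest in pattern to AXIN2 and GLUL. The members and lists were chosen with earlier results of these data known. The steps were tested on simulated data, with changes well past 2-fold in probe sets well above the floor. Changes near 2-fold or near the floor were not simulated. Python 3.11.15, pandas 2.3.3 and numpy 2.4.6 were used. Alternatives changed the floor, scaling, threshold, probe set choice and chromosome background.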

Additional observations from a re-analysis of the deposited data

How the results depend on the processing

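No paired analysis was possible because each line had 1 array, and no array could be left out. Each of 8 alternatives changed 1 choice. The log2 difference of AXIN2 in the doxorubicin-resistant line ranged from -1.19 to -1.02 and that of GLUL from -1.39 to -1.01, past 2-fold throughout. AXIN2 in the cisplatin-resistant line ranged from -1.05 (median of its probe sets) to -0.54 (neighbours subtracted), and GLUL between the sublines reached -0.89 with the median of its probe sets, under 2-fold. RNF43 was at -0.01 against parental in both sublines with the floor at the 75th percentile (440), since its parental signal is close to that floor, and at -0.04 in the cisplatin-resistant line with neighbours subtracted. Counts depended on the floor. With the floor at the 25th percentile (19.4), 4 member probe sets and 1 gene were past 2-fold in the cisplatin-resistant and 11 and 5 in the doxorubicin-resistant line against parental, and 6 and 2 between the sublines. Of these probe sets 2 were higher in each comparison, among them AXIN2 224498_x_at in both resistant lines (1.31 and 1.23 over parental). With no floor and a pseudocount of 16, these were 4 probe sets in the cisplatin-resistant line, 12 probe sets and 5 genes in the doxorubicin-resistant line and 5 and 2 between the sublines. Here 3 of the 4 and 3 of the 12 were higher, all of LEF1 and AXIN2 224498_x_at, so that the absence of higher calls against parental did not hold under either setting. At the 75th percentile, 0 probe sets remained in the cisplatin-resistant line and 1 between the sublines. With neighbours subtracted these were also 0 and 1. At 1.5-fold, 4 probe sets (1 higher) and 2 genes were called in the cisplatin-resistant line. With the median of probe sets, 1 gene was called there and 0 between the sublines. The median of the member genes in the cisplatin-resistant line was -0.63 with the low and -0.25 with the high floor, and -0.23 with neighbours subtracted. In the doxorubicin-resistant line it was -0.62 and -0.20 with those floors, and between the sublines -0.27 with neighbours subtracted. Quantile normalization and centring on the median left the counts within 1.5 times. The median of all probe sets moved by under 0.1 in any scaling.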
